A study of Mus musculus with 3 samples.

Results

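Monocyte-committed progenitors with Mpo and F13a1 were taken from 3 droplet single-cell RNA libraries of mouse bone marrow. A cell entered when it had at least 200 genes, no more than 5% of its UMIs from mitochondrial genes, 10 or more raw UMIs of Mpo and 2 or more of F13a1. A UMI (unique molecular identifier) stands for 1 captured mRNA molecule. The rule found 5093 cells among 31292 that passed the filters on genes and mitochondrial UMIs, out of 36035 barcodes in the count files. The cells were therefore selected on Mpo (ENSMUSG00000009350) and F13a1 (ENSMUSG00000039109), whose levels are given below as a description and carry no result.

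The study asked how cannabidiol (CBD), a compound of hemp, acts on blood formation in mice after acute irradiation. The Control library came from unirradiated mice, the IR library from mice given 6 Gy of gamma rays and solvent, and the IR+CBD library from mice given 6 Gy and CBD. Values with CBD are those of the IR+CBD library, and where 3 values stand without names their order is Control, IR and IR+CBD. The animals were C57BL/6 males. By the methods of the study, the solvent was soybean oil with DMSO, and CBD was injected into the abdomen before and after irradiation. Marrow was flushed from femurs at day 14, and each library pooled 3 mice, so single animals cannot be told apart. Before droplets were made, sorted Lin−Kit+ cells were mixed with Lin−Kit− and Lin+ cells at 5:4:1, where Lin marks antigens of mature blood cells and Kit is the receptor for stem cell factor. A share of cells below is thus a share of this mixture and not of marrow. There is 1 library per group and no replicate, so no test between groups was possible, and differences between pools, sorts or library preparations cannot be told apart from the treatment.

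Monocytes arise in bone marrow from myeloid progenitors that have already turned on genes for the primary granules, the store of bactericidal enzymes that monocyte and neutrophil precursors share. Commitment to the monocyte side is known to go with the transcription factors Irf8 and Klf4 and with Csf1r, the receptor for macrophage colony-stimulating factor, whereas the neutrophil side goes with Gfi1 and Cebpe. F13a1 encodes the A subunit of coagulation factor XIII and Mpo the granule enzyme myeloperoxidase, so cells with both lie where the granule program and the monocyte program meet.

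Control held 1629 gate cells of 10674 kept cells, IR held 1733 of 10345 and IR+CBD held 1731 of 10273. In the gate, the median cell had 39920 UMIs in Control, 33370 in IR and 26801 with CBD. The other kept cells had medians of 9625, 9778 and 9328 UMIs, so the gate cells were deep in every library and their depth was lowest in IR+CBD. They carried 67183265, 61037216 and 49873189 UMIs in all, which is 34.5%, 30.2% and 28.8% of the UMIs of kept cells. At an equal depth of 5000 UMIs, the median number of genes per cell was 2179 in Control, 2144.5 in IR and 2140.0 with CBD. The libraries thus differed in depth per gate cell far more than in genes at equal depth. Control and IR shared 35 barcodes, Control and IR+CBD 41, and IR and IR+CBD 51, of which 1 was a gate barcode in both.

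Levels are given as CPM, the UMIs of a gene summed over the gate cells of a library per 1000000 UMIs of those cells. Values in parentheses are 95% intervals: exact Poisson for a CPM, exact Clopper-Pearson for a share, and exact conditional binomial for a ratio. They cover counting error only. Mpo stood at 3789 CPM in Control, 4103 in IR and 4503 with CBD, and F13a1 at 497, 504 and 524 CPM. The median gate cell had 156 Mpo UMIs in Control, 144 in IR and 125 with CBD, and 14, 14 and 10 UMIs of F13a1. Both medians were lowest in IR+CBD, the library with the shallowest gate cells, although both CPM were highest there.

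Prtn3 (ENSMUSG00000057729), which encodes the granule protease proteinase 3 and was not used by the rule, stood at 6862 CPM in Control, 6997 in IR and 7385 with CBD. Only Ptma, at 8937, 8971 and 8527 CPM, was more abundant on average over the 3 libraries. Of the monocyte factors, Irf8 stood at 277, 268 and 245 CPM and Klf4 at 45.2, 27.9 and 24.9 CPM. The receptor gene Csf1r stood at 36.5 CPM in Control, 40.4 in IR and 34.6 with CBD. Ly86, whose product pairs with Cd180, a relative of Toll-like receptors, stood at 153, 153 and 107 CPM. The monocyte progenitor list has 16 genes, among them Mpo and F13a1, which are high by selection, and all 16 reached a mean of 5 CPM, the minimum used here for a comparison of genes. Their sum, with Prtn3 the most abundant, was 18009 CPM in Control, 18900.4 in IR and 19563 with CBD. Cells with at least 20 UMIs of Elane and none of F13a1 had sums of 19552, 21271 and 23832 CPM, so the sum does not set the gate apart on the monocyte side.

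Granulocyte genes were present in the same cells. At least 20 UMIs of Elane, the gene of neutrophil elastase, were found in 83.6% (81.7 to 85.4) of the gate cells of Control, 84.8% (83.0 to 86.4) of IR and 83.2% (81.3 to 84.9) of IR+CBD. In CPM, Elane stood at 3167, 3338 and 3975, close to its granule partner Ctsg (cathepsin G) at 3547, 3519 and 3896. Mature macrophage genes were nearly absent: the list of 9 summed to 19.2 CPM in Control, 16.7 in IR and 19.6 with CBD. Irf8, Csf1r and Ly86 thus go with the monocyte part of the name. Klf4 does not add to it, since its shares of cells, given below, could not be told apart from those of B-lineage cells. Prtn3 and the sum of the list do not tell the gate from the granulocyte side, and most of the cells held Elane as well.

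Free RNA in droplets gives UMIs in cells that do not express a gene. To measure it, shares of cells with a UMI were also taken in B-lineage cells with at least 5 UMIs of Cd79a outside the gate, of which there were 2664 in Control, 3242 in IR and 2460 with CBD, at median depths of 4280.5, 3939 and 3483.5 UMIs. These cells held Mpo in 57.96%, 37.01% and 41.3%, Prtn3 in 70.4%, 43.7% and 48.5%, and F13a1 in 12.9%, 9.84% and 7.28%. A single UMI of a granule gene is thus no sign of a myeloid cell, while the rule asks for 10 UMIs of Mpo and 2 of F13a1. Csf1r had a UMI in 64.0%, 63.9% and 49.2% of the gate cells against 1.73%, 1.203% and 0.854% of the Cd79a cells. At an equal depth of 5000 UMIs, which 1197, 1223 and 862 Cd79a cells reached, these shares were 17.9%, 17.8% and 15.9% in the gate against 1.003%, 1.31% and 0.812%, so the Csf1r signal lay above the background. Klf4 had a UMI in 16.9%, 11.3% and 10.02% of gate cells at that depth against 13.95%, 9.403% and 12.4% of Cd79a cells, so by these shares its level in the gate cannot be told apart from that of the Cd79a cells. The macrophage gene C1qa had a UMI in 0.368%, 0.923% and 0.462% of gate cells and in 0.225%, 0.339% and 0.163% of the shallower Cd79a cells, which is near background. Cells with at least 5 UMIs of Cd79a were also found inside the gate, 84 in Control, 71 in IR and 56 with CBD, or 5.16%, 4.10% and 3.24% of it.

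Next to the gate lie 3 other sets of cells, which share no cell with it and are named by their genes: an Mpo-Cd34 gate with at least 10 UMIs of Mpo and 2 of Cd34, none of F13a1 and under 20 of Elane, an Elane gate with 20 or more UMIs of Elane and none of F13a1, and a Ccr2-Csf1r gate with at least 2 UMIs of each of these and under 10 of Mpo. Irf8 was 12.4 (11.1 to 13.9) times as high in the Mpo and F13a1 gate as in the Elane gate in Control, 15.4 (13.5 to 17.6) times in IR and 17.3 (15.1 to 19.9) times in IR+CBD. Against the Ccr2-Csf1r gate, Irf8 had ratios of 0.720 (0.682 to 0.761), 0.742 (0.696 to 0.793) and 0.611 (0.568 to 0.659). The gate thus stood far above the Elane cells and somewhat below the Ccr2-Csf1r cells in every library. Klf4 showed a wider gap to the latter, at 0.185 (0.172 to 0.200), 0.128 (0.116 to 0.140) and 0.134 (0.119 to 0.151) times their level. The neutrophil factor Cebpe went the other way, with 33.1, 23.5 and 38.6 CPM in the gate against 184, 202 and 191 CPM in the Elane gate. Gfi1, a repressor of monocyte genes, stood at 21.5, 23.8 and 29.8 CPM against 55.4, 61.8 and 73.6 CPM. Ms4a3, a membrane protein gene of granulocyte and monocyte progenitors, was the least different of these, with 1172, 1097 and 1216 CPM against 1967, 2013 and 2214 CPM.

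**Figure D1:**
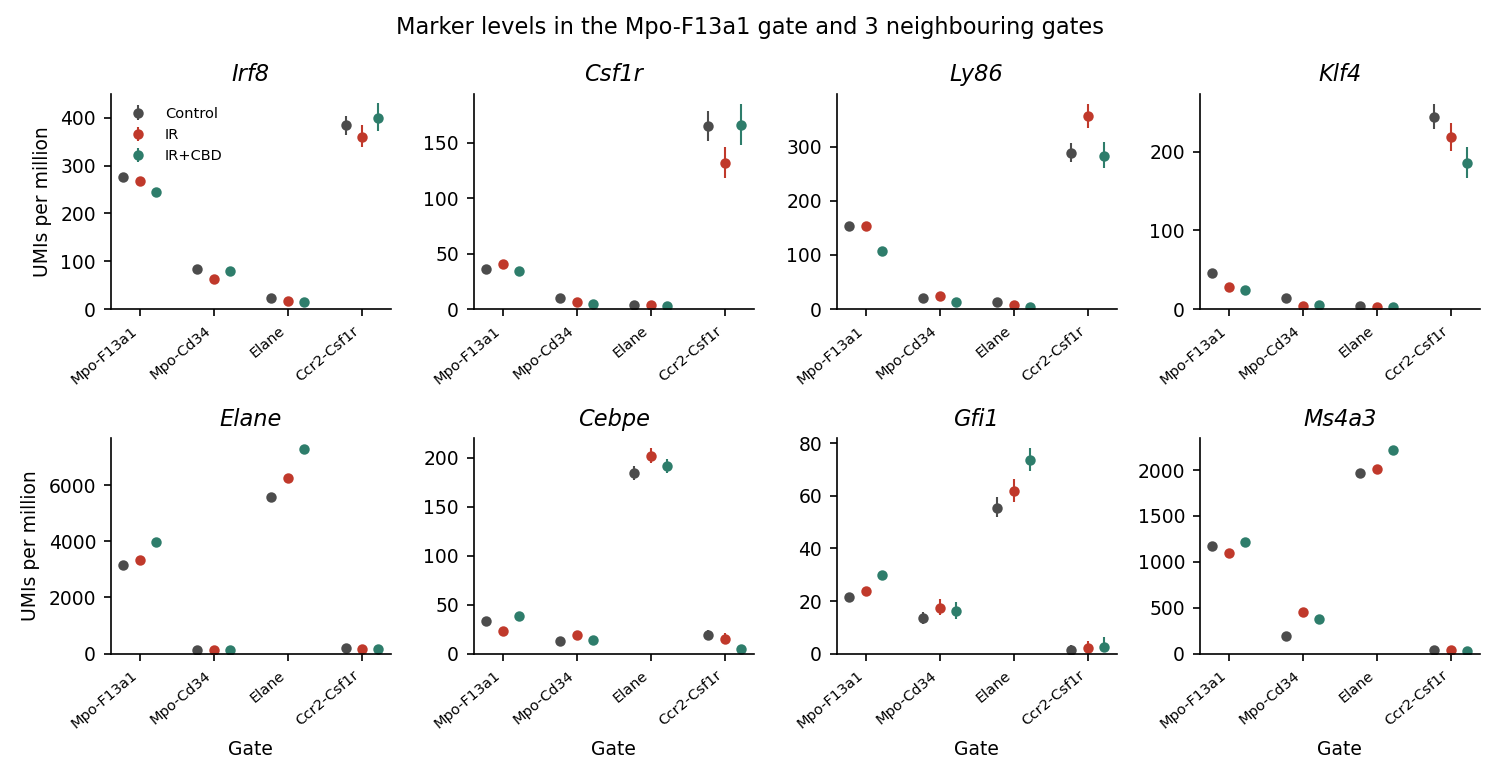
Levels in CPM of 4 monocyte genes (Irf8, Csf1r, Ly86, Klf4) and 4 granulocyte genes (Elane, Cebpe, Gfi1, Ms4a3) in the Mpo and F13a1 gate and in 3 other gates, with 1 point per library and exact Poisson 95% intervals. Irf8 stands at 245 to 277 CPM in the gate and at 14.1 to 22.3 CPM in the Elane gate. Elane enters the rules of the Elane and Mpo-Cd34 gates, and Csf1r that of the Ccr2-Csf1r gate. Their levels there are set by selection.

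Inside the gate, cells were divided by their own F13a1 UMIs into those with 2, 3 to 4, 5 to 9, and 10 or more. Irf8 stood at 74.9, 89.1, 159 and 365 CPM along these bins in Control, at 68.4, 125, 175 and 335 CPM in IR, and at 49.3, 82.9, 164 and 349 CPM in IR+CBD. Ly86 went from 36.6 to 203 CPM in Control, from 25.2 to 196 in IR and from 12.6 to 158 in IR+CBD between the lowest and highest bin. Both genes were thus higher with more F13a1 in every library. So was Ly6c2, a surface antigen of inflammatory monocytes, at 379.7 to 998 CPM in Control, 530.2 to 1246 in IR and 495 to 1001 with CBD. Elane ran the opposite way, from 4717 CPM in the lowest to 2521 in the highest bin in Control, from 5195 to 2597 in IR and from 5925 to 2832 in IR+CBD. Cebpe, which drives late granulocyte genes, went from 83.4 to 15.6 CPM, from 80.0 to 8.82 CPM and from 92.3 to 14.1 CPM. Cd63, a granule membrane protein gene, went from 369 to 58.2 CPM, from 345 to 54.9 CPM and from 416 to 75.6 CPM. These bins are set by a gene of the rule, and they differ in depth, since the median cell had 35084 UMIs in the lowest and 41272 in the highest bin of Control, 29391 and 35153 in IR, and 22567 and 29484 in IR+CBD, and the part of depth and of the rule in these values was not tested.

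**Figure D2:**
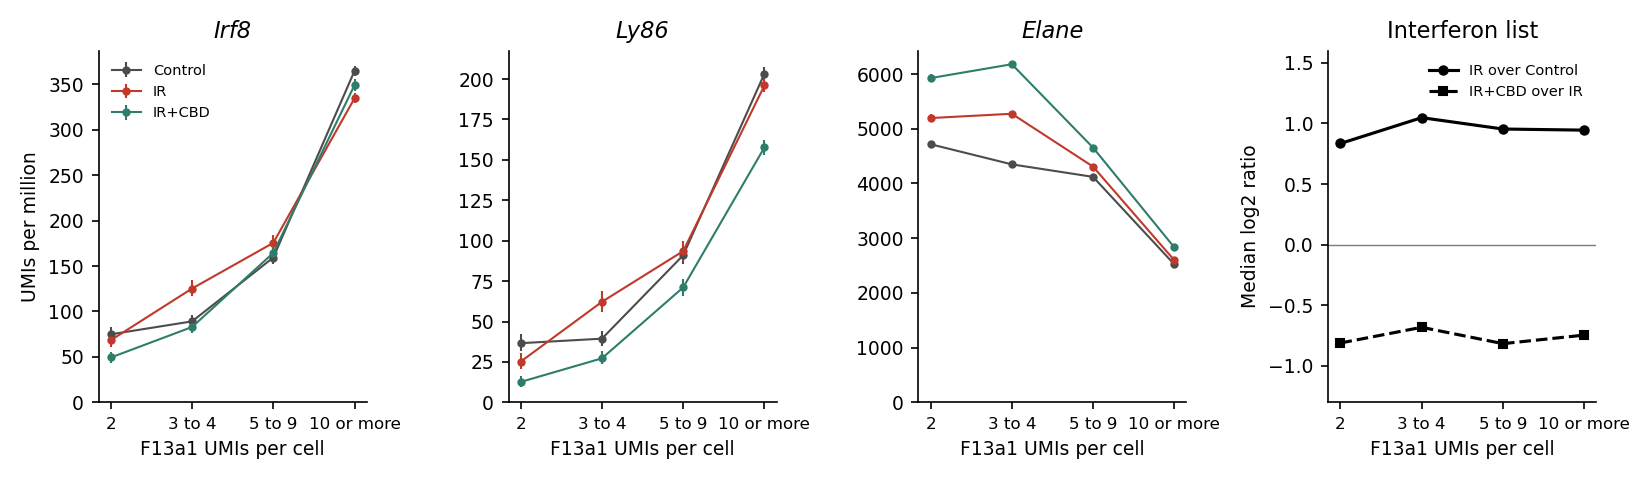
Levels in CPM of Irf8, Ly86 and Elane in each library, and the median log2 ratio of the interferon list in IR over Control and in IR+CBD over IR, along bins of gate cells by F13a1 UMIs. Irf8 and Ly86 are higher and Elane lower in cells with more F13a1, and the interferon medians keep their side of 0 in all 4 bins.

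Around the thresholds of the rule, 148 Control, 143 IR and 215 IR+CBD cells were inside with exactly 2 UMIs of F13a1, and 307, 271 and 391 cells with enough Mpo were just outside with 1. Irf8 stood at 74.9, 68.4 and 49.3 CPM in the former and at 63.0, 40.2 and 37.9 CPM in the latter. Elane stood at 4717, 5195 and 5925 CPM inside and at 3976, 5168 and 5902 CPM outside. Fewer cells lay near the Mpo limit: 25, 18 and 19 cells had 10 to 14 UMIs, and 46, 23 and 31 cells with enough F13a1 had 5 to 9. Their Irf8 levels were 394, 373 and 360.2 CPM inside against 409, 323 and 359 CPM outside. Irf8 was thus higher just inside the F13a1 limit in each library, Elane was close on both sides in IR and IR+CBD, and the counts show no gap at the edges of the gate.

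The gate made up 15.3% (14.6 to 15.96) of kept cells in Control, 16.8% (16.04 to 17.5) in IR and 16.9% (16.1 to 17.6) with CBD. Relative to Control, the share was 1.10 (1.03 to 1.18) times as large in IR and 1.10 (1.03 to 1.18) times in IR+CBD. From IR to IR+CBD, the ratio was 1.01 (0.940 to 1.08). The share was thus slightly higher in both irradiated libraries than in Control, and close between IR and IR+CBD. With 1 library per group and intervals for counting error only, no difference between groups was tested. Leaving out, from gate and kept cells alike, those with 5 or more UMIs of B, T and NK, erythroid, megakaryocyte or basophil, mast cell and eosinophil markers took the IR+CBD over IR ratio to 0.869 (0.806 to 0.935). Such cells were 374 of the gate in Control, 311 in IR and 310 with CBD, or 22.96%, 17.9% and 17.9%. The limits are raw UMIs, which a deeper cell passes more readily, and the gate cells of Control were the deepest.

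Within the gate, cells with 10 or more F13a1 UMIs were 61.4% (59.0 to 63.8) in Control, 62.9% (60.6 to 65.2) in IR and 50.9% (48.5 to 53.3) with CBD. Cells at exactly 2 UMIs were 9.09%, 8.25% and 12.4%. These are raw UMIs of a gene of the rule, in cells that were shallowest in IR+CBD. With cells thinned to 5000 UMIs, F13a1 had a UMI in 74.9% of gate cells in Control, 79.04% in IR and 78.8% with CBD, against 10.03%, 7.52% and 6.61% of Cd79a cells, and nothing is read from either measure. Among the other gates, the Elane gate took 4.27% (3.90 to 4.67) of kept cells in Control, 4.64% (4.24 to 5.06) in IR and 6.77% (6.29 to 7.27) with CBD. Its median cell had 31444.5 UMIs in Control, 26456 in IR and 20379 with CBD. The Elane and Mpo-Cd34 gates ask for no F13a1 UMI, which a shallower cell meets more readily, and the part of depth in their shares was not tested. The Mpo-Cd34 gate took 3.65%, 2.14% and 2.21%, and the Ccr2-Csf1r gate 1.81%, 1.14% and 1.00%. The share ratio of IR over Control was 1.09 (0.953 to 1.24) for the Elane gate, 0.585 (0.493 to 0.691) for the Mpo-Cd34 gate and 0.631 (0.497 to 0.797) for the Ccr2-Csf1r gate, so the Mpo-Cd34 and Ccr2-Csf1r gates lay under 1 while the Mpo and F13a1 gate lay above.

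**Figure D3:**
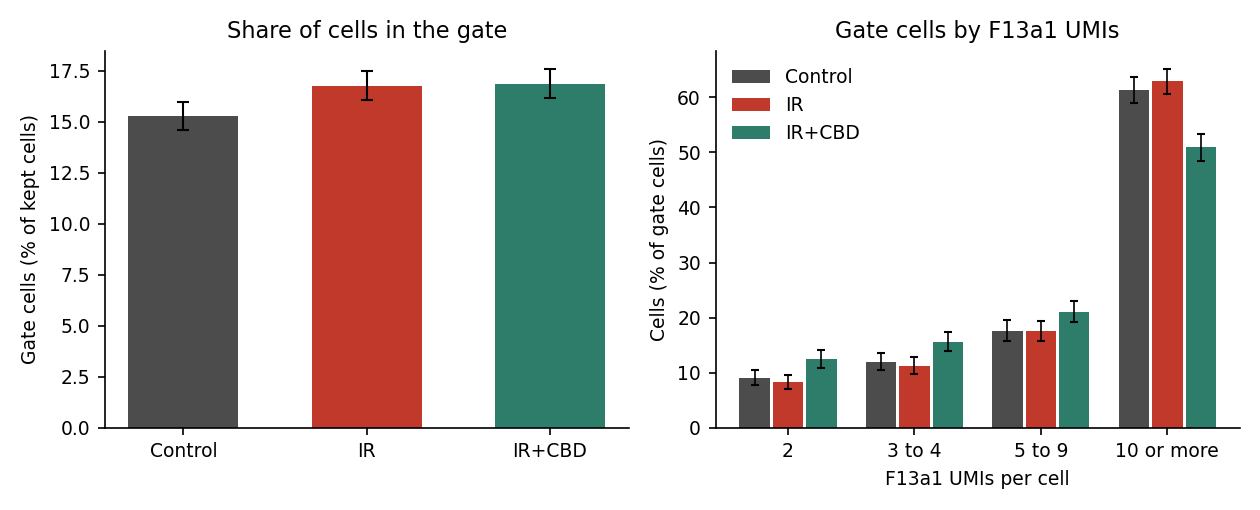
Share of kept cells in the Mpo and F13a1 gate in each library with its exact Clopper-Pearson 95% interval, and the share of gate cells in each bin of F13a1 UMIs. The gate takes between 15.3% (Control) and 16.9% (IR+CBD) of kept cells, and IR+CBD, the library with the shallowest gate cells, has the smallest share with 10 or more raw F13a1 UMIs, 50.9%.

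To describe irradiation, IR was compared with Control over the 9645 genes with a mean of at least 5 CPM, and a gene was called past 1.5-fold at a ratio of at least 1.5 or at most 0.667. In IR over Control, 150 genes were higher (1.56% of genes tested) and 104 lower (1.08%), with 64 and 21 of them past 2-fold. To describe CBD after irradiation, IR+CBD was compared with IR, where 64 genes were higher (0.664%) and 61 lower (0.632%). Over Control, IR+CBD had 107 higher (1.11%) and 62 lower (0.643%). The median log2 ratio over all genes tested was -0.04, 0.02 and -0.03 in these comparisons, in this order. Since IR enters both IR over Control and IR+CBD over IR, a chance high or low count in IR moves a gene in opposite directions in them, and their values are set side by side below without a count of shared genes.

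Interferons are cytokines that turn on a broad set of antiviral genes. Of the 73 genes of the interferon response list, 45 reached a mean of 5 CPM in the gate. In IR over Control, 33 of these were higher past 1.5-fold and 1 lower, against 1.56% and 1.08% of all genes, with a median log2 ratio of 0.97. From IR to IR+CBD, 28 were lower and 0 higher, against 0.632% and 0.664%, with a median of -0.81. Against Control, IR+CBD had 4 higher and 2 lower, against 1.11% and 0.643%, with a median of 0.13. Some members reached the mean through IR alone, where they are high. Of the 33 members with 5 CPM in every library, 21 were higher and 1 lower in IR over Control, against 1.02% and 0.874% of 9383 such genes, with a median of 0.75. In IR+CBD over IR 0 of these were higher and 17 lower, against 0.501% and 0.416%, with a median of -0.62. The list summed to 2951 CPM in Control, 4288 in IR and 2741 with CBD, with Ly6e the most abundant. IR was thus the high library, and Control and IR+CBD lay near each other.

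Among effectors, Isg15, a ubiquitin-like protein that is joined to other proteins, stood at 3.80 CPM in Control, 33.3 in IR and 8.28 with CBD. Its ratio was 8.78 (7.71 to 10.0) from Control to IR and 0.248 (0.223 to 0.276) from IR to IR+CBD. Ifi27l2a, a mitochondrial membrane protein gene, stood at 12.1, 94.8 and 12.1 CPM, ratios of 7.80 (7.25 to 8.41) and 0.128 (0.117 to 0.139). For Isg15 the level in IR+CBD stayed above Control, whereas for Ifi27l2a both were alike. Rtp4, a chaperone of receptors, stood at 1.37, 11.8 and 2.03 CPM, and its ratios were 8.61 (6.93 to 10.8) and 0.172 (0.138 to 0.212). The related genes Oasl1 and Oasl2, relatives of the enzymes that sense double-stranded RNA, stood at 2.80, 19.2 and 5.73 CPM and at 1.47, 11.9 and 3.09 CPM. Oas1a, which makes the signal that activates RNase L, stood at 4.44, 15.7 and 4.61 CPM. All of these were highest in IR. Xaf1, a partner of an inhibitor of apoptosis, had 5.06, 22.9 and 6.40 CPM, and the DNA-binding protein gene Ifi211 had 3.96, 13.8 and 2.93 CPM. The Cd79a cells held Ifi27l2a and Isg15 in larger shares than the gate at 5000 UMIs per cell, for Isg15 4.68%, 16.2% and 4.64% against 2.03%, 12.8% and 2.72%, so they give no background here, and the part of free RNA was not tested. The stem cell antigen gene Ly6a had 3.29, 14.8 and 3.27 CPM, so its level in IR+CBD was that of Control.

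The more abundant members moved by smaller factors. Ifitm3, which blocks viral entry at endosomes, stood at 451 CPM in Control, 917 in IR and 355 with CBD, ratios of 2.03 (2.004 to 2.06) and 0.387 (0.381 to 0.394). Bst2, which tethers budding viruses and also counts among the dendritic cell markers, stood at 158, 327 and 179 CPM. Ifi27 stood at 32.5, 128 and 48.7 CPM. Ifitm1, a relative of Ifitm3, was the single tested member past 1.5-fold in the other direction, with 456 CPM in Control, 241 in IR and 303 with CBD and an IR over Control ratio of 0.529 (0.519 to 0.540). Members of 1 gene family therefore stood on opposite sides in IR, Ifitm3 high and Ifitm1 low.

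**Figure D4:**
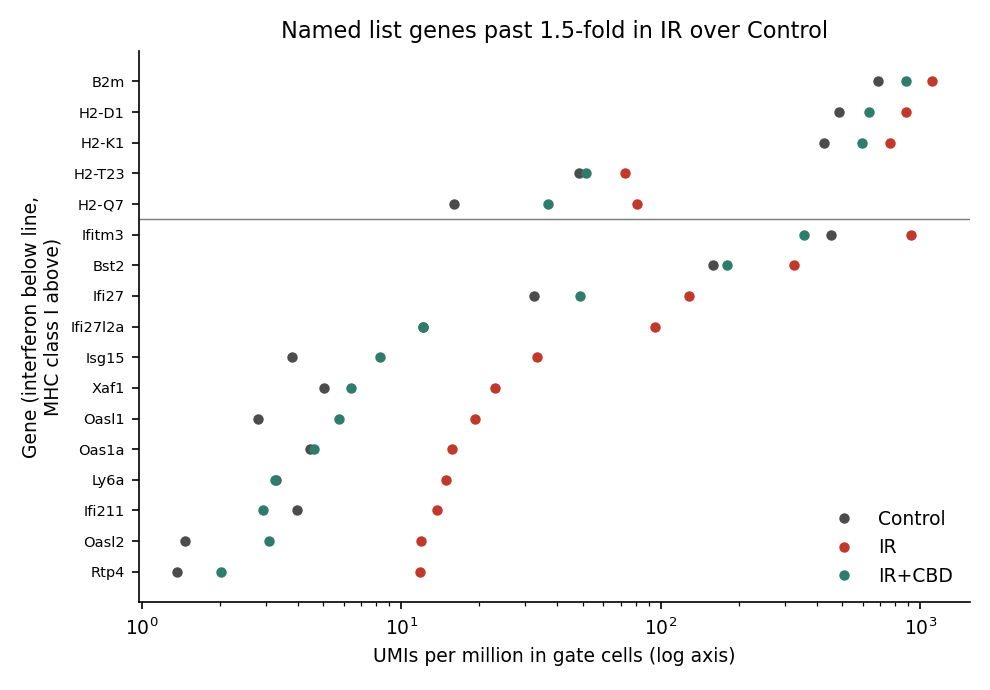
Levels in CPM, on a log axis, of the named interferon response and MHC class I genes past 1.5-fold in IR over Control, with 1 point per library. Every gene drawn is higher in IR than in Control because it was chosen so, and the IR+CBD points show where each lay with CBD.

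The interferon pattern ran through the whole gate. Along the bins of 2, 3 to 4, 5 to 9 and 10 or more F13a1 UMIs, the median log2 ratio of IR over Control was 0.84, 1.05, 0.95 and 0.95, and that of IR+CBD over IR was -0.81, -0.68, -0.82 and -0.75. It also ran beyond it: in IR over Control the medians were 0.67 in the Mpo-Cd34 gate, 0.92 in the Elane gate and 1.01 in the Ccr2-Csf1r gate. Those of IR+CBD over IR were -0.70, -0.86 and -1.07. The gate therefore lay within the range of its neighbours. By level, Isg15 in IR stood at 33.3 CPM in the gate, 41.1 in the Mpo-Cd34 gate, 38.5 in the Elane gate and 92.2 in the Ccr2-Csf1r gate.

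MHC class I molecules show peptides from inside the cell to T cells, and their genes respond to interferons. Of the 22 genes of this list, 21 reached 5 CPM. In IR over Control 11 were higher past 1.5-fold and 0 lower, against 1.56% and 1.08% of all genes, with a median log2 ratio of 0.59. In IR+CBD over IR 0 were higher and 3 lower, against 0.664% and 0.632%, with a median of -0.34. Against Control, IR+CBD had 3 higher and 0 lower, against 1.11% and 0.643%, with a median of 0.18. Its sum was 4034 CPM in Control, 5756 in IR and 4624 with CBD, with B2m the most abundant. The light chain gene B2m stood at 684, 1109 and 879 CPM, its ratio being 1.62 (1.603 to 1.64) in IR over Control. The classical heavy chain gene H2-K1 stood at 425, 763 and 596 CPM, and H2-D1 at 485, 879 and 636 CPM. The nonclassical heavy chain gene H2-Q7 had the highest ratio of IR over Control of the list, 5.06 (4.74 to 5.41), from 16.02 to 81.1 CPM with 36.8 CPM in IR+CBD. In these 4 genes IR+CBD lay between Control and IR. H2-T23, at 48.5, 72.9 and 51.5 CPM, had a ratio of 1.501 (1.43 to 1.57), at the limit of a call.

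MHC class II genes, which serve professional antigen-presenting cells, were low: 6 of 11 reached 5 CPM, and the list summed to 297 CPM in Control, 291 in IR and 240.4 with CBD, with H2-DMa the most abundant. Between IR and Control, 0 were higher and 1 lower (Cd74, the invariant chain, with 20.6, 12.7 and 17.0 CPM). Between IR+CBD and IR, 0 were higher and 1 lower, Ctss, the protease that trims the invariant chain, with 45.7, 62.9 and 40.3 CPM. The medians were 0.16 and -0.26. Of all genes, 1.08% and 0.632% were lower in these comparisons, and the call of Cd74 ended with looser gate limits and that of Ctss with stricter limits.

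Immediate early genes are switched on within minutes of a stimulus, and NF-kB feedback genes follow inflammatory signals. Of 37 genes, 33 reached 5 CPM, and 31 of these were below 1 in IR over Control, with a median log2 ratio of -0.33, 5 lower past 1.5-fold and 0 higher, against 1.08% and 1.56% of all genes. In IR+CBD over IR 31 were above 1, with a median of 0.32, 5 higher past 1.5-fold and 0 lower, against 0.664% and 0.632%. The IR+CBD over Control median was -0.02, with 0 higher and 1 lower, against 1.11% and 0.643%. The list summed to 3077 CPM in Control, 2516 in IR and 3047 with CBD, with Jun the most abundant. IR was thus the low library here, the reverse of the interferon list.

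Egr1, a transcription factor of the growth factor response, stood at 40.9 CPM in Control, 19.5 in IR and 33.9 with CBD. Its ratio was 0.477 (0.445 to 0.511) from Control to IR and 1.74 (1.62 to 1.88) from IR to IR+CBD. Fosb, a subunit of the AP-1 factor, stood at 44.1, 22.3 and 43.2 CPM, and its ratios were 0.506 (0.474 to 0.540) and 1.94 (1.81 to 2.07). The orphan nuclear receptor gene Nr4a1 stood at 22.6, 11.5 and 16.7 CPM, past 1.5-fold in IR over Control alone, at 0.510 (0.466 to 0.558). All of these were lowest in IR. Klf2 and Klf4, factors of quiescence and of monocyte fate, stood at 45.2, 28.6 and 36.6 CPM and at 45.2, 27.9 and 24.9 CPM. Klf4 was the exception among them, since it was no higher in IR+CBD than in IR, with a ratio of 0.892 (0.829 to 0.960). The neutrophil-attracting chemokine gene Cxcl2 stood at 53.7, 37.2 and 74.7 CPM, a ratio of 2.01 (1.91 to 2.12) for IR+CBD over IR. Nfkbiz, a nuclear regulator of NF-kB, stood at 85.8, 63.5 and 98.4 CPM. Both were highest in IR+CBD. In IR+CBD over IR, the calls of Egr1 and Nfkbiz ended with looser gate limits, and that of Nfkbiz also with depths weighted to Control. Along the F13a1 bins, the list's median was -0.43, -0.35, -0.18 and -0.35 in IR over Control and 0.45, 0.20, 0.23 and 0.33 in IR+CBD over IR, the same sign in each bin.

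Outside these lists, Nalf1 (ENSMUSG00000079157), which encodes an accessory protein of a sodium leak channel, had the highest ratio of IR over Control by the bound nearest to 1, in a ranking that it entered through IR alone, since its other levels were far under 5 CPM. It had 8 UMIs in Control, 927 in IR and 6 with CBD, or 0.119, 15.2 and 0.120 CPM, ratios of 128 (64.5 to 296) and 0.00792 (0.00290 to 0.0173). The UMIs of IR lay in 77 cells, 4.44% of its gate cells at a median depth of 33370 UMIs, against 0.339% of the Cd79a cells at 3939 UMIs. At 5000 UMIs per cell the shares were 2.66% and 0.327%. Nalf1 was thus nearly confined to IR, and to a small part of its gate cells. With 1 pooled library, a difference between mice cannot be told apart from irradiation. In the IR library, Nalf1 also stood at 18.9 CPM in the Mpo-Cd34 gate and 26.7 CPM in the Elane gate, but at 0.372 CPM, from 1 UMI, in the Ccr2-Csf1r gate.

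Slc15a2 (ENSMUSG00000022899), a transporter of small peptides, showed the mirror pattern, with 5.51 CPM in Control, 0.688 in IR and 9.02 with CBD. Its ratio was 0.125 (0.0886 to 0.172) from Control to IR and 13.1 (9.55 to 18.4) from IR to IR+CBD. Nrg1 (ENSMUSG00000062991), a growth factor for receptors of the EGF family, stood at 72.6, 14.4 and 8.64 CPM, and its ratios were 0.198 (0.184 to 0.213) and 0.6001 (0.534 to 0.674). Slc15a2 reached the mean of 5 CPM through Control and IR+CBD, where it is high, and its place in the rankings rests on that. It was low in IR alone, whereas Nrg1 was low in both irradiated libraries. The Cd79a cells held Slc15a2 in larger shares than the gate at equal depth in every library, and the part of free RNA was not tested. By gate, Nrg1 in Control was high in the Ccr2-Csf1r gate, at 144 CPM, and low in the Mpo-Cd34 gate, at 2.29 CPM. The secreted protease gene Klk8 stood at 20.6, 6.55 and 8.34 CPM, the lactate dehydrogenase gene Ldhb at 22.8, 8.405 and 12.2 CPM, and the noncoding gene Mir99ahg at 18.5, 6.18 and 6.84 CPM. Their ratios of IR over Control were 0.318 (0.284 to 0.356), 0.369 (0.334 to 0.408) and 0.334 (0.296 to 0.375). These 3 were low in both irradiated libraries as well. Mid1, a ubiquitin ligase on microtubules, stood at 69.2, 28.9 and 45.0 CPM, and so lay between in IR+CBD.

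The 10 highest genes of IR+CBD over IR were Jchain, Slc15a2, Igkc, Acod1, Cxcl10, Gm42047, Ncam1, Olr1, Prss34 and Wfdc21. Among them Cxcl10, a chemokine for activated T cells, stood at 77.9 CPM in Control, 54.5 in IR and 135 with CBD, with a ratio of 2.47 (2.37 to 2.57). Acod1, which makes itaconate in activated macrophages, stood at 7.86, 3.82 and 12.1 CPM, a ratio of 3.16 (2.71 to 3.69). Olr1, a scavenger receptor gene, had 9.42, 7.995 and 19.2 CPM, and the unnamed gene Gm42047 (ENSMUSG00000110631) had 9.17, 9.40 and 24.1 CPM. All of these were highest in IR+CBD, with Gm42047 alike in Control and IR. Ncam1, an adhesion molecule gene, stood at 15.7, 6.80 and 17.1 CPM, a ratio of 2.51 (2.23 to 2.83), and was low in IR alone.

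The monocyte progenitor list holds Mpo and F13a1 of the rule. Its median log2 ratio was 0.03 in IR over Control, with 0 of 16 higher past 1.5-fold and 1 lower, Klf4. It was -0.17 in IR+CBD over IR, with 0 higher and 0 lower, and in IR+CBD over Control -0.10, with 0 higher and 1 lower (1.11% and 0.643% of all genes). Of its other members, Ms4a6c, a gene of the same membrane family as Ms4a3, stood at 325, 405 and 298 CPM. The protease inhibitor gene Slpi stood at 304, 411 and 391 CPM, and the transcriptional repressor gene Zeb2 at 665, 682 and 690.4 CPM. Emb, a chaperone of transporters, stood at 532, 524 and 465 CPM. Pld4, an exonuclease of endosomes, stood at 34.9, 37.1 and 26.3 CPM, Rassf4 at 59.3, 58.2 and 51.5 CPM, and Tifab, a regulator of signals from Toll-like receptors, at 75.2, 78.8 and 68.3 CPM. Against 1.56% higher and 1.08% lower of all genes in IR over Control, and 0.664% and 0.632% in IR+CBD over IR, a list of 16 genes would hold few calls in any case.

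Most genes of mature monocytes had ratios below 1 in IR+CBD over IR, few of them past 1.5-fold. Of 18 genes, 16 reached 5 CPM, and their median log2 ratio was -0.01 in IR over Control, -0.35 in IR+CBD over IR and -0.33 in IR+CBD over Control. In IR+CBD over IR 14 of 16 were below 1, with 2 past 1.5-fold (0.632% of all genes), and 0 were higher past 1.5-fold. In IR over Control 0 were higher and 1 lower (1.08% of all genes), and in IR+CBD over Control 0 were higher and 4 lower (0.643%). The gene lower in IR over Control, Fn1, passed the minimum through Control, where it is high. Of the 15 members with 5 CPM in every library, 0 were lower in IR over Control and 3 in IR+CBD over Control. Of all such genes, 0.874% and 0.544% were lower. The list summed to 2199.7 CPM in Control, 2415 in IR and 1963 with CBD, with Ly6c2 the most abundant. Ly6c2 stood at 807, 1093 and 853 CPM, and Ms4a4c, a relative of Ms4a6c, at 21.0, 27.7 and 15.6 CPM. The galectin gene Lgals3 stood at 92.2, 62.5 and 44.8 CPM, the calcium-binding protein gene S100a4 at 39.3, 28.0 and 21.1 CPM, and the fibronectin gene Fn1 at 9.63, 4.21 and 3.51 CPM. The chemokine receptor gene Ccr2, which lets monocytes leave the marrow, stood at 117, 117 and 92.1 CPM. Ly6c2 and Ms4a4c were thus highest in IR, while Lgals3, S100a4 and Fn1 were highest in Control and lowest in IR+CBD. For Fn1, 2.64%, 1.39% and 1.39% of gate cells had a UMI at 5000 UMIs per cell, near the 1.92%, 1.06% and 1.04% of Cd79a cells. Within bins of F13a1 UMIs, the median of IR+CBD over IR was 0.00, -0.14, -0.32 and -0.24 from the lowest to the highest bin, so it was largest in size above 4 UMIs.

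Vcan and Fcgr1, also of that list, had means under 5 CPM, at 2.58, 1.18 and 1.10 CPM and at 2.56, 5.52 and 1.82 CPM. Lyz2 (lysozyme) stood at 474, 399 and 358 CPM, Psap (a lysosomal activator) at 194, 219.7 and 171 CPM, Cybb (the catalytic unit of the phagocyte oxidase) at 126, 124 and 122 CPM, and the chemokine gene Ccl9 at 104, 128 and 121 CPM. Ifi30, a lysosomal thiol reductase gene, stood at 99.1, 71.8 and 58.6 CPM. Low members were Mpeg1, a pore-forming protein gene, at 26.3, 30.6 and 21.1 CPM, Cd14, a receptor for bacterial lipids, at 17.9, 16.9 and 13.2 CPM, Cx3cr1, a chemokine receptor gene, at 12.4, 13.8 and 14.6 CPM, and the integrin gene Itgam at 9.84, 8.36 and 9.82 CPM. Ifi30 was thus highest in Control and lowest in IR+CBD.

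Genes of granulocyte-committed progenitors had ratios above 1 in IR+CBD over IR in 12 of 12 cases, most of them under 1.5, with a median log2 ratio of 0.20 and 2 past 1.5-fold (0.664% of all genes), although weighting cells to the depths of Control took that median to 0.025. In IR over Control their median was -0.01, with 0 higher and 1 lower past 1.5-fold (1.08% of all genes), Fcnb, whose call ended in 5 alternatives. In IR+CBD over Control the median was 0.23, but it turned to -0.053 with cells weighted to the depths of Control. The list summed to 5548 CPM in Control, 5635 in IR and 6552 with CBD, with Elane the most abundant. Cebpe had an IR+CBD over IR ratio of 1.64 (1.53 to 1.76), which was under 1.5 with cells weighted to the depths of Control. Fcnb, which encodes a lectin of the complement system, stood at 18.0, 11.3 and 19.9 CPM. Cd63 had 135, 116 and 173 CPM, a ratio of 1.497 (1.45 to 1.55) that lay just under the limit of a call. The glutathione transferase gene Gstm1 stood at 198, 215 and 257 CPM, and Mgst2, which conjugates glutathione at membranes, at 56.9, 76.0 and 84.3 CPM. Fcgr3, an antibody receptor gene, stood at 101, 114 and 119.7 CPM, Trem3, an activating receptor gene, at 122, 127 and 134 CPM, and Igsf6, an immunoglobulin-like receptor gene, at 141, 130.2 and 139.8 CPM. Hp (haptoglobin) stood at 383, 363 and 365 CPM. Without that weighting, most of this list was thus highest in IR+CBD. Within the bins, its median of IR+CBD over IR was 0.20, 0.14, 0.10 and 0.09 from the lowest to the highest.

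Early progenitor genes, which mark cells before commitment, had 14 of 16 members at 5 CPM or more, with Mycn (0.327, 0.344 and 0.281 CPM) and Procr (0.893, 0.492 and 0.622 CPM) below. Their sum was 797 CPM in Control, 764 in IR and 874 with CBD, with Myb the most abundant at 206, 208 and 249 CPM. Between IR and Control, 0 were higher and 1 lower, Hlf, a stem cell factor, with 10.9, 6.73 and 9.56 CPM. IR+CBD over IR had 0 higher and 0 lower, at a median log2 ratio of 0.23, and in IR+CBD over Control 1 was higher, Mecom, another stem cell factor, with 12.1, 14.9 and 19.95 CPM. Kit stood at 52.3, 48.9 and 60.5 CPM and Cd34, a surface sialomucin gene, at 95.9, 109 and 113 CPM. Sox4, Meis1 and Hoxa9, factors of immature cells, stood at 103, 108 and 112 CPM, at 40.7, 35.0 and 38.2 CPM and at 21.2, 21.1 and 22.6 CPM. Adgrl4, an adhesion receptor gene, had 115, 78.8 and 102 CPM, and the growth factor gene Angpt1 had 44.8, 40.7 and 51.6 CPM. Flt3 (a cytokine receptor) stood at 23.6, 18.6 and 21.3 CPM, Egfl7 at 37.0, 38.6 and 37.0 CPM, Cd27 (a costimulatory receptor) at 26.1, 28.2 and 27.9 CPM, and Gata2 at 7.46, 6.75 and 8.38 CPM. Most of these were thus within a small factor across libraries. Of all genes, 1.08% were lower in IR over Control and 1.11% higher in IR+CBD over Control.

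Secondary and tertiary granule genes of late neutrophils were unevenly spread over the gate. Of 14 genes 12 reached 5 CPM, and the list summed to 4750.0 CPM in Control, 3403 in IR and 5385 with CBD, with S100a8 the most abundant at 1861, 1243 and 2195 CPM. Gate cells with at least 50 UMIs of the list numbered 265 in Control, 130 in IR and 234 with CBD, or 16.3% (14.5 to 18.2), 7.50% (6.31 to 8.84) and 13.5% (11.9 to 15.2), and held 93.2%, 90.9% and 93.03% of these UMIs. In the other gate cells the list summed to 389, 333 and 429 CPM. The limit of 50 UMIs was chosen after the data were seen. A minority of cells thus carried the list, fewest in IR. Its median log2 ratio was -0.39 in IR over Control, but it turned to 0.15 with the gate set per 10000 UMIs of a cell and to 0.11 with cells thinned to 5000 UMIs. In IR over Control 1 was higher and 1 lower, against 1.56% and 1.08% of all genes. The higher gene was Padi4, an arginine-modifying enzyme gene at 3.90, 6.05 and 5.63 CPM, a call that ended with thinned cells. Padi4 passed the minimum through the irradiated libraries, and with 5 CPM in every library 0 of the list were higher. For IR+CBD over IR the median was 0.53, with 3 higher and 0 lower, and 0.09 without the cells of 50 or more such UMIs. By bins of 2, 3 to 4, 5 to 9 and 10 or more F13a1 UMIs it was 1.55, 0.62, -0.39 and 0.53, so its sign changed within the gate. Of all genes, 0.664% were higher and 0.632% lower in this comparison. Wfdc21, a small secreted protein gene, stood at 112, 68.5 and 143 CPM, and Retnlg, a resistin relative, at 81.8, 75.2 and 131 CPM. In IR+CBD over IR, the calls of Retnlg and S100a8 ended with stricter limits and without the cells of 50 or more late neutrophil UMIs. That of Retnlg also ended with the gate per 10000 UMIs and with thinned cells. In IR over Control, the call of Wfdc21 ended with looser limits, with the gate per 10000 UMIs and with thinned cells. The share of gate cells with a UMI of Camp, a late granule gene, was 54.5%, 43.2% and 40.9%, but at 5000 UMIs per cell it was 14.0%, 9.82% and 12.3% against 18.5%, 15.5% and 15.8% of Cd79a cells, which reads as background for most gate cells.

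Markers of other lineages were low in sum, and their calls stand beside 1.56% higher and 1.08% lower of all genes in IR over Control and 0.664% and 0.632% in IR+CBD over IR. Without the cells that held 5 or more UMIs of B, T and NK, erythroid, megakaryocyte or basophil, mast cell and eosinophil markers, 124 genes were higher and 98 lower in IR over Control, and 66 higher and 55 lower in IR+CBD over IR. The part of dendritic cell and macrophage markers was not tested. The 8 erythroid genes summed to 72.1 CPM in Control, 138 in IR and 169 with CBD, with Car1 the most abundant and 5 reaching 5 CPM. From Control to IR, 5 of these 5 were higher past 1.5-fold, with a median log2 ratio of 1.33. Of these, 1 had 5 CPM in every library, at a log2 ratio of 0.73. The others were under 5 CPM in Control and so passed the minimum through the irradiated libraries, where they are high. The calls of Car1 and Rhd ended without cells of other lineages. In IR+CBD over IR 0 of the 5 were higher and 0 lower, with a median of 0.10. The globin genes Hbb-bs and Hba-a2, outside that list, were higher past 1.5-fold in both comparisons, but this changed with the settings: Hba-a2 turned to 0.956 in IR+CBD over IR with the gate per 10000 UMIs and the call of Hbb-bs ended there with looser limits. Hbb-bs stood at 6.28, 42.8 and 79.4 CPM and Hba-a2 at 2.34, 11.8 and 20.3 CPM, with 83.4%, 88.1% and 94.9% of the Hbb-bs UMIs in the top 1% of gate cells. Erythroid RNA was thus lowest in Control and held by few cells. The B lineage list (8 genes, 6 at 5 CPM) summed to 219.7, 194 and 190.5 CPM, with Ebf1 the most abundant, and had 0 higher and 0 lower in IR over Control and in IR+CBD over IR. The T and NK list (8 genes, 0 at 5 CPM) summed to 3.84, 3.44 and 3.33 CPM, with Klrd1 the most abundant. The dendritic cell list (16 genes, 6 at 5 CPM) summed to 352, 497 and 366 CPM, with Bst2 the most abundant and 1 higher and 2 lower in IR over Control and 0 higher and 1 lower in IR+CBD over IR. Dntt, the enzyme that adds bases in antigen receptor genes, was among those lower in IR, with 10.8, 5.82 and 8.36 CPM. Its call ended with the gate per 10000 UMIs and with thinned cells. The 8 megakaryocyte genes summed to 16.5, 7.29 and 9.95 CPM, of which Pf4, a platelet chemokine gene, reached 5 CPM, with 10.5, 3.56 and 5.33 CPM and 87.8%, 71.0% and 80.8% of its UMIs in the top 1% of cells. The basophil, mast cell and eosinophil list (8 genes, 5 at 5 CPM) summed to 105, 62.7 and 80.9 CPM, with Mcpt8 the most abundant. It had 0 higher and 3 lower in IR over Control and 3 higher and 1 lower in IR+CBD over IR. The gene lower in IR+CBD over IR, Prg2, passed the minimum through Control and IR, where it is high. Of the 4 members with 5 CPM in every library, 3 were higher and 0 lower in that comparison. With thinned cells, however, the median of IR+CBD over IR turned from 0.67 to -1.19, and Cpa3, Mcpt8 and Prss34 were lower. In IR over Control, the calls of these genes ended with thinned cells. Those of Cpa3 and Mcpt8 also ended there with looser limits, and that of Mcpt8 without cells of other lineages. Macrophage genes had 2 of 9 at 5 CPM, with 0 higher and 1 lower in IR over Control and 1 higher and 0 lower in IR+CBD over IR, in both cases Vcam1, an adhesion molecule gene with 6.50, 4.16 and 8.46 CPM. Vcam1 passed the minimum through Control and IR+CBD, where it is high. With 5 CPM in every library, 1 macrophage gene remained, with 0 calls in either comparison. The call of Vcam1 in IR over Control ended without cells of other lineages and with looser limits. It also ended without the cells of 50 or more late neutrophil UMIs and with the mean of per-cell CPM. In these lists, Cd209a was at 0 UMIs in IR, Gp1bb at 0 in IR+CBD and Ppbp at 0 in both, and each other gene had UMIs in every library.

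For several genes at the ends of the ranking, most UMIs lay in few cells. Jchain, which links immunoglobulin units in plasma cells, had 11.6 CPM in Control, 0.475 in IR and 42.5 with CBD, but 741 of its 782 Control UMIs and 1711 of its 2122 IR+CBD UMIs lay in 1 cell each. For Igha, an immunoglobulin heavy chain gene with 21.3, 1.39 and 3.35 CPM, 1404 of 1433 Control UMIs lay in 1 cell. Igkc, a light chain gene with 64.9, 32.5 and 273 CPM, had 6312 of 13595 IR+CBD UMIs in 1 cell. The ratios of Jchain and Igha therefore rest on few cells. For Igkc, 66.3%, 35.9% and 90.8% of the UMIs lay in the top 1% of gate cells. Prss34, a basophil protease gene with 21.97, 6.29 and 14.5 CPM, had 95.3%, 96.1% and 97.4% of its UMIs in the top 1% of gate cells, and Prg2, an eosinophil granule gene with 17.0, 13.6 and 2.61 CPM, had 91.2%, 88.0% and 54.6%. By contrast the top 1% held 32.2%, 13.2% and 28.8% of the UMIs of Isg15.

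The primary granule list (20 genes, 19 at 5 CPM) summed to 23493, 23835 and 26107 CPM, had 0 higher and 0 lower past 1.5-fold in IR over Control and in IR+CBD over IR, and had medians of -0.06 and 0.08. Cytosolic ribosomal proteins (85 genes, 81 at 5 CPM) had 0 higher and 0 lower, with medians of 0.05 and 0.00. Nuclear genes of oxidative phosphorylation (91 genes, 79 at 5 CPM) and genes of glycolysis (19 genes, 19 at 5 CPM) also had 0 higher and 0 lower in these comparisons, and Cox7b2, Cox8b, Cox8c, Ndufa4l2 and Ndufb4c of the former were at 0 UMIs throughout. S phase genes (37 of 37 at 5 CPM) summed to 4239, 4166 and 3822 CPM, with 35 of 37 below 1 in IR+CBD over IR and a median of -0.12. G2/M genes (51 of 51) summed to 7698, 7100.4 and 7322 CPM, with 46 of 51 below 1 in IR over Control and a median of -0.13. Neither cycle list had a gene past 1.5-fold in IR over Control or in IR+CBD over IR. Since 1.56% and 1.08% of all genes were called in the former and 0.664% and 0.632% in the latter, an absence of calls is near what genes at large show.

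Stress lists had few calls, to be read beside 1.56% higher and 1.08% lower of all genes in IR over Control and 0.664% and 0.632% in IR+CBD over IR. The p53 list (30 genes, 20 at 5 CPM) had 1 higher and 0 lower in IR over Control, Pmaip1, a killer protein of the Bcl2 family, with 27.0, 41.3 and 48.8 CPM, a call that ended with thinned cells, and 0 higher and 0 lower in IR+CBD over IR. Of these 20 genes, 16 were below 1 in IR over Control and 15 above 1 in IR+CBD over IR. Their median log2 ratios were -0.11 and 0.11, against -0.04 and 0.02 over all genes. The heat shock list (25 genes, 24 at 5 CPM) had 2 higher in IR over Control, the Hsp70 genes Hspa1a, with 6.55, 15.3 and 12.2 CPM, and Hspa1b, with 6.15, 15.6 and 11.7 CPM. Antioxidant genes (29 genes, 26 at 5 CPM) had 1 higher in IR over Control, the metallothionein gene Mt2 with 9.27, 18.5 and 27.0 CPM, a call that ended without cells of other lineages, and 1 higher in IR+CBD over IR, the cystine transporter gene Slc7a11 with 8.35, 6.24 and 9.54 CPM, a call that ended with depths weighted to Control. Respiratory chain genes of the mitochondrial genome (13 of 13) had 2 higher in IR over Control, mt-Atp6 with 41.6, 72.0 and 61.9 CPM and mt-Co3 with 17.9, 30.2 and 27.9 CPM. Apart from Slc7a11, each of these genes was lowest in Control. In lists of receptors and regulators, cytokine and chemokine receptors (28 genes, 22 at 5 CPM) had 0 higher and 0 lower in IR over Control and in IR+CBD over IR. Innate sensing genes (27 genes, 23 at 5 CPM) had 0 higher in both and 1 lower in IR+CBD over IR, the fungal sensor gene Clec7a with 32.3, 42.3 and 26.7 CPM, a call that ended with stricter gate limits. Myeloid transcription factors (37 genes, 32 at 5 CPM) had 0 higher and 4 lower in IR over Control and 2 higher and 0 lower in IR+CBD over IR, with medians of -0.09 and 0.13.

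Of the genes in the study's title, Atf2, a stress-activated transcription factor, stood at 54.9 CPM in Control, 50.8 in IR and 57.6 with CBD, and Lrp6, a coreceptor of Wnt ligands, at 27.1, 25.7 and 27.9 CPM. Their ratios of IR+CBD over IR were 1.13 (1.08 to 1.19) and 1.09 (1.01 to 1.17), both under 1.5. The study's result on these genes is for hematopoietic stem cells and cultured stem and progenitor cells, so the values here are no test of it. The list of CBD targets and genes of the study (19 genes, 11 at 5 CPM) had 0 higher and 2 lower in IR over Control, Egr1 and Nr4a1, and 1 higher and 0 lower in IR+CBD over IR, Egr1, whose call there ended with looser gate limits. Of all genes, 1.08% were lower in the former and 0.664% higher in the latter. Trpv1 and Htr1a, a channel and a serotonin receptor to which CBD is known to bind, were at 0 UMIs in the gate of every library, which allows a level of no more than the floor of 3 UMIs. Of the stefin A cluster of cysteine protease inhibitors, 0 genes reached 5 CPM, and the cluster summed to 4.39, 4.34 and 12.4 CPM, with Stfa1 the most abundant.

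To show the promoters behind the interferon and granule genes, the 300 bases around each transcription start were searched on both strands for 4 short motifs: GAAANNGAA, the core of an interferon-stimulated response element, GGAANNGAA, a site form shared by ETS and IRF factors, GAGGAAGT, a form of the site of the myeloid factor Spi1, and TTGCGCAA, a palindrome of C/EBP factors. The GAAANNGAA and GGAANNGAA forms differ in a single letter, and 317 of 32851 promoters of 27025 genes held both. GAAANNGAA was present in 8.56% of all promoters, GGAANNGAA in 8.24%, GAGGAAGT in 3.202% and TTGCGCAA in 0.183%, too few to read from small sets. Of the 33 interferon genes higher in IR, 24 had a promoter in the RefSeq table (build GRCm38.p6), with 28 promoters in all, and GAAANNGAA was found in 14 of these (50%), GGAANNGAA in 5 (17.9%) and GAGGAAGT in 1 (3.57%). Of all 45 interferon genes at 5 CPM, 34 had a promoter, and GAAANNGAA was in 20 of 41 promoters (48.8%). The motif thus goes with the list as a whole and does not set apart its genes higher in IR. Of the 11 MHC class I genes higher in IR, 10 had a promoter, and GAAANNGAA was in 3 of 11 promoters (27.3%), those of H2-T22, H2-T23 and B2m. Of the 19 primary granule genes at 5 CPM, 16 had a promoter, and GAGGAAGT was in 6 of 17 promoters (35.3%), those of Mpo, Prtn3, Elane, Ctsc, Gusb and Mmp8. A match describes letters and shows neither binding nor a cause.

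Printed here, 5′ to 3′ in the direction of transcription and with GAAANNGAA in capitals, are the promoters of the 3 interferon genes with the highest ratio of IR over Control among those with the motif and a mean of 5 CPM: Isg15 (chr4:156200769-156201068, minus strand), with 3 matches that overlap, Oas1a (chr5:120907476-120907775, minus strand), with 2, and Ifi211 (chr1:173912997-173913296, minus strand), with 1. The matches of Isg15 and of Oas1a form a single run in each.
Isg15: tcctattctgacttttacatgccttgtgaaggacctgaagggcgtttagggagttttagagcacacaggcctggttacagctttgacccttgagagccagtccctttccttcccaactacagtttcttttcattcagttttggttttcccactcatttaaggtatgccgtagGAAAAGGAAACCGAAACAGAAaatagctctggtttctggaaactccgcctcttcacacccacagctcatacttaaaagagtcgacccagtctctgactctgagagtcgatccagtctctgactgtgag
Oas1a: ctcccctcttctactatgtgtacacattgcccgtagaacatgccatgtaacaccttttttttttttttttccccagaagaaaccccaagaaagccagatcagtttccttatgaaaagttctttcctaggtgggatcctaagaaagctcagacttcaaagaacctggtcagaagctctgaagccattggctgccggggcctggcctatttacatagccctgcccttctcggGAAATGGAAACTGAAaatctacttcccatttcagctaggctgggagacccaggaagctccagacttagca
Ifi211: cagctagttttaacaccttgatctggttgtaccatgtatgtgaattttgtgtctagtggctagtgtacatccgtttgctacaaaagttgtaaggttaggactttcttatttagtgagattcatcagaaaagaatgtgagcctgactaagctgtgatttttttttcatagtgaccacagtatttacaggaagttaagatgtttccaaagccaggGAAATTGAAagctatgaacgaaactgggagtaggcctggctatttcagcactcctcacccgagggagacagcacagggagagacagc

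The marker genes Mpo, F13a1 and Prtn3 each had a promoter with GAGGAAGT, in 3 of their 4 promoters, which are shown with these letters in capitals: Mpo (chr11:87793534-87793833, plus strand), F13a1 (chr13:37049164-37049463, minus strand, 1 of its 2 promoters) and Prtn3 (chr10:79879417-79879716, plus strand). They are drawn from RefSeq at GRCm38.p6, as are those above. Among the 16 genes of the monocyte progenitor list, 15 had a promoter, and 6 of their 21 promoters (28.6%) held GAGGAAGT.
Mpo: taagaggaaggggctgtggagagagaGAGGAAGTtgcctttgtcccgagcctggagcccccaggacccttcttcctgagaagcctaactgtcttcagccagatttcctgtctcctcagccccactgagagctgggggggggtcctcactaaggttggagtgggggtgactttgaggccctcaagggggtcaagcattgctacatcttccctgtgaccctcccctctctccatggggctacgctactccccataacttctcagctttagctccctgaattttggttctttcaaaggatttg
F13a1: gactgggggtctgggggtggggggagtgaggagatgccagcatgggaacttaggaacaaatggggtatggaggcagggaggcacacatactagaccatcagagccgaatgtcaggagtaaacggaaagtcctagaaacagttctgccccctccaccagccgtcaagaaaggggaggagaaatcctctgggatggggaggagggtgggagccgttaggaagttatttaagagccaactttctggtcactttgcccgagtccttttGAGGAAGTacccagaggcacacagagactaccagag
Prtn3: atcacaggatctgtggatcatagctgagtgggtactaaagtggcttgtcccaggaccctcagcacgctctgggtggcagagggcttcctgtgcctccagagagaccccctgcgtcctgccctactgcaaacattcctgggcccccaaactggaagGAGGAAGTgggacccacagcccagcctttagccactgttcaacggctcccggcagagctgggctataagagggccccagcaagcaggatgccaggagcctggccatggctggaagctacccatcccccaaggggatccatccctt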

How the data were processed

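The deposited values are raw UMI counts per gene and cell barcode, made by the authors with Cell Ranger (version 4.0 per the labels, 7.0.1 per the file headers) against GRCm39. Cells were filtered and gated as above, and UMIs were summed over gate cells by library. Genes with a mean of at least 5 CPM were compared by the ratio of CPM, called past 1.5-fold, and log2 ratios used a pseudocount of 0.5 UMI. Lists are described by counts and medians. Members and lists were chosen with earlier results of these data known. Named genes are the 10 highest and lowest in IR over Control and in IR+CBD over IR by the interval bound nearest to 1, all genes of the monocyte, granulocyte-committed and early progenitor lists, up to 4 called genes of each other list by level, and Atf2, Lrp6, Nr4a1 and Egr1. Genes named for other reasons were chosen after their values were seen. No doublet caller was run, and alternatives left out cells with UMIs of other lineages or the deepest cells. Other alternatives changed filters, gate limits, depth, scaling and pseudocount. Software was Python 3.11.15, numpy 2.4.6, scipy 1.17.1, pandas 2.3.3 and matplotlib 3.10.9.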

Additional observations from a re-analysis of the deposited data

How the results depend on the processing

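No paired analysis was possible because each group is 1 library pooled from 3 mice. All alternatives that were planned gave values, and an alternative without the gate cells of 50 or more late neutrophil UMIs was added after seeing the data, as was a filter of 5 CPM in every library. The cause of the changes below was not tested except where stated.

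The share of gate cells in IR over Control, 1.10 in the report, lay between 1.05 and 1.42 over 9 alternatives, and IR+CBD over Control between 1.06 and 1.29, so both stayed above 1. IR+CBD over IR lay between 0.869 and 1.07. Without cells holding UMIs of another lineage, the ratios of IR over Control, IR+CBD over IR and IR+CBD over Control were 1.42, 0.869 and 1.23, with kept cells reduced to 4657, 3714 and 4273. IR over Control and IR+CBD over Control were 1.28 and 1.28 without the deepest 5% of cells, 1.22 and 1.197 with the gate per 10000 UMIs, 1.25 and 1.29 with cells thinned to 5000 UMIs, and 1.199 and 1.19 without the late neutrophil cells.

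Of 102 counts of genes past 1.5-fold, 75 were within 1.5 times the reported count. Looser gate limits gave 40 genes higher in IR+CBD over IR, or 38.8% of the calls in place of 51.2%. With cells thinned to 5000 UMIs, 252 genes were lower in IR over Control (43.0% of calls higher in place of 59.1%), 197 were higher and 106 lower in IR+CBD over IR (65.0% higher), and 208 were higher and 132 lower in IR+CBD over Control. These counts rest on fewer UMIs by construction. Filters change the counts by the number of genes that enter. A mean of at least 1 CPM gave 379 higher and 328 lower in IR over Control, 282 and 157 in IR+CBD over IR (64.2% higher), and 387 and 199 in IR+CBD over Control. At 20 CPM the counts were 50 and 32, 22 and 21, and 26 and 20. With 5 CPM in every library they were 96 and 82, 47 and 39, and 64 and 51. No filter gave 5263 and 6271 (45.6% higher), 5687 and 5279, and 5301 and 5372 (49.7% higher in place of 63.3%).

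The interferon median lay between 0.74 and 1.02 in IR over Control and between -0.85 and -0.62 in IR+CBD over IR. MHC class I lay between 0.46 and 0.63 and between -0.35 and -0.31, and the immediate early list between -0.38 and -0.29 and between 0.25 and 0.34. The mature monocyte median lay between -0.42 and -0.19 in IR+CBD over IR. The interferon median of IR+CBD over Control was 0.029 at 20 CPM. The granulocyte-committed median of IR+CBD over Control was 0.38 with thinned cells, and with depths weighted to Control it was -0.053, beside 0.025 in IR+CBD over IR. Of 1374 list medians 1294 were within their interval, 78 moved, and 2 that lay past 1.5-fold changed sign: the megakaryocyte list in IR+CBD over Control, 0.40 with the gate per 10000 UMIs, and the basophil, mast cell and eosinophil list in IR+CBD over IR, -1.19 with thinned cells. Medians closer to 0 changed sign as well, such as the granulocyte-committed value above and late neutrophil genes in IR over Control.

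Of 3224 ratios of named genes, 2365 were within their interval, 847 moved, and 12 that lay past 1.5-fold changed side. Igha in IR over Control was 3.76 without cells of other lineages and 3.25 without the deepest cells. Most of its Control UMIs lay in a single cell, and the part of that cell in these changes was not tested. Pf4 in IR+CBD over IR was 0.686 without the deepest cells. Prg2 was 5.15 with looser limits. Hba-a2 was 0.956 with the gate per 10000 UMIs. With thinned cells, IR+CBD over IR was 0.439 for Cpa3, 0.525 for Mcpt8, 0.522 for Pf4 and 0.288 for Prss34, and Pf4 was 1.08 in IR over Control. Without the late neutrophil cells, IR+CBD over IR was 0.991 for Hba-a2 and 0.933 for Retnlg.

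Calls of named genes past 1.5-fold ended as follows. In IR over Control they ended for H2-T23 at 10% mitochondrial UMIs, for Car1, Fcnb, Igkc, Jchain, Mcpt8, Mt2, Pf4, Rhd and Vcam1 without cells of other lineages, and for H2-T23, Igkc and Mt2 without the deepest cells. Looser limits ended those of Cd74, Cpa3, Fcnb, H2-T23, Mcpt8, Vcam1 and Wfdc21, the gate per 10000 UMIs Dntt, Pf4, Pmaip1 and Wfdc21, and thinned cells Cpa3, Dntt, Fcnb, Mcpt8, Mt2, Padi4, Pf4, Pmaip1, Prss34 and Wfdc21. Without the late neutrophil cells Fcnb, H2-T23, Pmaip1 and Vcam1 were under the limit, with the mean of cells Fcnb, H2-T23 and Vcam1, and with depths weighted to Control Cd74 and H2-T23. In IR+CBD over IR, the calls of Pf4 and Slc7a11 ended at 10% mitochondrial UMIs and without the deepest cells, and those of Mcpt8, Pf4, Prg2 and Prss34 without cells of other lineages. Looser limits ended Cpa3, Egr1, Hba-a2, Hbb-bs, Mcpt8, Nfkbiz, Pf4 and Prss34, stricter limits Clec7a, Ctss, Retnlg and S100a8, and the gate per 10000 UMIs Clec7a, Ctss, Hba-a2, Mcpt8 and Retnlg. Thinned cells ended Igha and Retnlg, and leaving out the late neutrophil cells Cebpe, Hba-a2, Hbb-bs, Retnlg and S100a8. Depths weighted to Control ended Cebpe, Mcpt8, Nfkbiz and Slc7a11. Pf4 was under the limit with the mean of cells and with centred ratios.

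Depth limits the shares, since the limits are raw UMIs and gate cells were shallowest in IR+CBD. It also limits genes under 5 CPM, which were not compared. Each library is 1 pool, so intervals hold no variation between mice, and a sort mixed at fixed parts gives no cell numbers per marrow. The gate holds cells with granulocyte genes and some with B-lineage UMIs, and no doublet caller was run.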
